A study of Mus musculus with 199 samples.

Results

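The SYBR Gold test of this multiplex-GAM series held 18 libraries of 4 nuclear profiles (4NP), 15 titled stained and 3 titled unstained, out of 199 libraries in all and 186 4NP libraries. Members were taken by their titles. The experiment also held 1 stained and 1 unstained water control, caps labelled as holding no profile, which serve here as background. The cells were 46C mouse embryonic stem cells, a 129/Ola line. Sections of 220 nm were microdissected, 4 profiles to a cap, and the caps were kept frozen overnight before whole genome amplification over 25 cycles with the Sigma WGA4 kit. All libraries of the series had failed the quality control of the authors, and libraries that passed it were not analysed here. Each comparison is therefore between failed libraries only.

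The titles and the protocols of these libraries disagreed. The staining step, 10 min in SYBR Gold diluted 10000 times, was described for the 3 libraries titled unstained, and it was missing from the protocol of the 15 titled stained. The methods of the study give higher concentrations of the dye than this label. Groups follow the titles throughout, and every difference between stained and unstained changes sign if the protocols are the correct record. Wells were laid out by group: stained libraries 1 to 8 came from plate column 1, stained libraries 9 to 15 from column 2 and the unstained libraries from column 4. Plate column and staining can thus not be told apart, but both stained columns can be compared with each other. Nothing in the labels says that the caps came from separate cultures, so p-values measure the spread between caps.

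SYBR Gold is a cyanine dye that fluoresces when bound to nucleic acid, and in genome architecture mapping (GAM) a stain serves to make nuclear profiles visible for the laser. A thin slice of a nucleus holds a small part of the genome, but it cuts through whole stretches of chromatin fibre. Loci that lie next to each other on the chromosome are therefore usually found in the same slice, and a chromosome whose territory was missed by the cut is absent from it. Runs of adjacent positive windows and an uneven yield of chromosomes are what such a slice gives.

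The deposited values were calls, 1 for a positive and 0 for a negative 40 kb window, and 65983 windows lay on chromosomes 1 to 19 and X. Genome coverage is the percent of them called. In the order of their replicate numbers, the 8 stained libraries of plate column 1 had 3, 858, 718, 1594, 1238, 1519, 1351 and 4634 called windows. The 7 of column 2 had 1067, 235, 4217, 3242, 1527, 1354 and 2142. The unstained libraries had 1235, 252 and 1. Stained library 1 and unstained library 3 were thus nearly empty, and both lay below the 65 windows of the stained water control. The unstained water control stood apart in the other direction, with 13860 called windows, more than any of the 18 profile libraries.

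Expressed as coverage, the stained libraries ran from 0.00455% (Wilson 95% interval 0.00155% to 0.0134%) through a median of 2.05% to 7.02% (6.83% to 7.22%). These intervals cover counting error only. The unstained libraries had 1.87%, 0.382% and 0.00152%, the first pair within the range of the stained ones and the last below it. In 38 of the 45 stained and unstained pairs the stained library had the higher coverage, but the difference of 1.84 percentage points was not larger than the spread between libraries (exact permutation test, two-sided, p = 0.116 and 0.162 after adjustment). Without unstained library 3 it was 1.47 percentage points. Coverage was 2.26% ± 2.08 in stained column 1 (SD, n = 8) and 2.98% ± 2.06 in column 2 (SD, n = 7), with no difference beyond this spread (exact permutation test, adjusted p = 0.583). Here and below, p-values were adjusted over all 39 tests (with a single plate column, over those that remain without the comparison of columns), and measures other than coverage used libraries with at least 100 calls, which left 14 stained and 2 unstained.

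**Figure D1:**
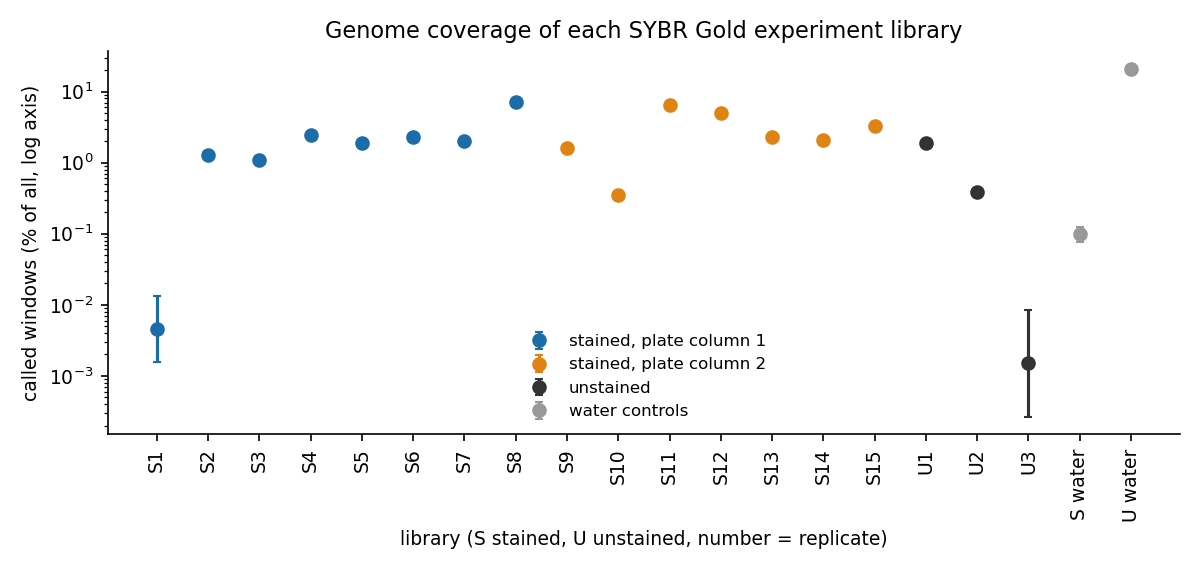
Genome coverage (percent of 65983 windows called, log axis) of each library of the SYBR Gold test, S for stained and U for unstained with the replicate number, with Wilson 95% intervals where they exceed the symbol. Stained library 1 and unstained library 3 lie below the stained water control, and the unstained water control lies above all profile libraries.

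Called windows lay beside each other more often than scattered calls would. The neighbour excess is the percent of positive windows that touch another positive window, minus the percent that scattered calls of the same number would give. It was above 0 in 14 of 14 stained libraries, with a mean of 15 ± 8.9 percentage points (SD), from 3.54 in library 10 to 40.6 in library 8 (exact sign-flip permutation test, p = 0.000122, the smallest this test can give, adjusted p = 0.000793). Within the plate columns, all 7 libraries of column 1 and all 7 of column 2 were above 0. In library 8, 54.2% of the called windows had a called neighbour against 13.5% expected. In library 10, which had the fewest calls of the 14, the share was 4.26% against 0.711%. The unstained water control, whose label gives an empty cap but whose calls outnumber those of any profile library, had a neighbour excess of 38.3 percentage points. The stained water control had no pair of adjacent calls.

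Unstained library 1 differed in appearance from stained libraries of like coverage. Its neighbour excess was 41.9 percentage points at 1.87% coverage. The 8 stained libraries within 1.5 times that coverage had between 7.21 and 20.8. Unstained library 2 had 11.5 at 0.382%, and the single stained library of like coverage, library 10, had 3.54. As group means the values were 15 ± 8.9 for stained and 26.7 ± 21.5 for unstained libraries (SD, n = 14 and n = 2), and the difference did not pass (exact permutation test, adjusted p = 0.217). It turned from -11.7 to 3.50 percentage points without unstained library 1.

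Long runs were rare. Most runs of called windows in stained libraries were a single window, between 69.4% of the runs in library 8 and 97.8% in library 10. The percent of called windows in runs of at least 5 (200 kb) was 8.68% in library 8, 2.7% in library 11 and at most 0.747% in the other stained libraries, 9 of which had none. It was 5.34% in unstained library 1 and 0 in unstained library 2. The difference between stained and unstained libraries was not beyond the spread (exact permutation test, adjusted p = 0.304), and it changed direction without unstained library 1, from -1.76 to 0.915 percentage points.

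The longest run of any stained library covered 13 windows (520 kb) of chromosome 11 in library 8, at chr11:95400001-95920000 (mm9), and a second run of that length was found in the same library. The annotation places 13 protein-coding genes there. Among them are Ngfr, a neurotrophin receptor, Phb, which encodes prohibitin of the inner mitochondrial membrane, and Igf2bp1, an RNA-binding protein. In library 11 the longest run spanned 8 windows (320 kb) at chr6:92600001-92920000, over Prickle2, a planar cell polarity gene, and Adamts9, a secreted metalloprotease. Library 15 had 6 windows (240 kb) at chr9:114360001-114600000, including Trim71, a stem cell RNA regulator, and Glb1, the lysosomal beta-galactosidase. Unstained library 1 also had 6 windows (240 kb), at chr11:4680001-4920000 over Nf2, the merlin tumour suppressor, and Nefh, a neurofilament subunit. The unstained water control held a run of 42 windows (1680 kb) at chr3:81320001-83000000, across the fibrinogen genes Fga, Fgb and Fgg.

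The same clustering was seen over longer distances. For each library the number of called pairs at a given distance was divided by the number expected from the calls on each chromosome. At 40 kb the ratio was 3.23 ± 0.816 over the stained libraries (SD, n = 14), at 400 kb 2.19 ± 0.786 and at 1000 kb 1.65 ± 0.371, and in each case it exceeded 1 in 14 of 14 libraries. At 10000 kb it was 1.13 ± 0.141, above 1 in 12 of 14. Unstained libraries 1 and 2 had 6.14 and 7.07 at 40 kb, above the highest stained value of 4.43, and the unstained water control had 2.02. The value of unstained library 2 rests on 17 pairs, and the highest stained value, that of library 10, on 5. At 1000 kb the 7 libraries of column 1 ran from 1.45 to 2.36 and those of column 2 from 1.14 to 1.78, the last from 2 pairs in library 10. These ratios were not tested.

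**Figure D2:**
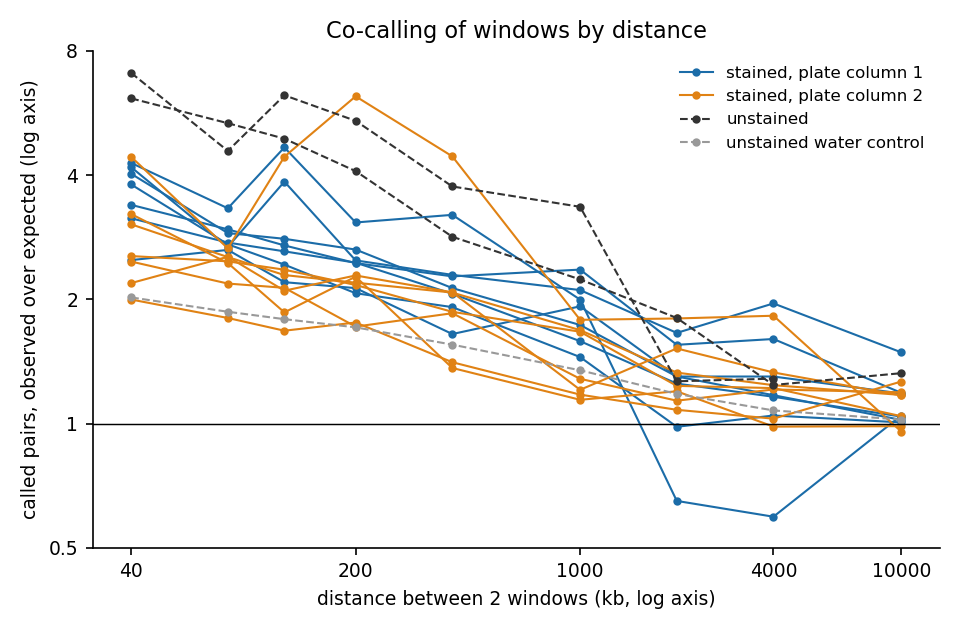
Called pairs of windows, observed over expected from the calls on each chromosome (log axis), against the distance between the windows (kb, log axis), with a line for each library. Stained libraries fall from a mean of 3.23 at 40 kb to 1.13 at 10000 kb, and both unstained libraries start above them.

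Chromosomes were not equally represented within a library. Chromosome unevenness is the coefficient of variation of coverage over the 19 autosomes, after removal of the part that counting alone gives. It averaged 0.604 ± 0.174 over 14 stained and 1.26 ± 0.0783 over 2 unstained libraries (SD), a difference of -0.658 that was lower in all 28 pairs (exact permutation test, p = 0.00833, the smallest possible with these numbers, adjusted p = 0.0203). Stained values ran from 0.421 to 1.01, and the unstained ones were 1.21 and 1.32, so the groups did not overlap. The unstained water control, at 0.627, lay within the stained range, and the stained water control, with 65 calls, had 0.307. All 8 stained libraries with coverage like that of unstained library 1 were below it, at 0.446 to 0.857. The call rests on 2 unstained libraries. Without the first or the second the difference was -0.713 and -0.603, and the exact permutation p of 0.0667 was then the smallest possible, so no call could be made (adjusted p = 0.104). With only column 1 or only column 2 as the stained group it was -0.535 and -0.781, each with the smallest exact permutation p that 7 against 2 libraries allow, 0.0278 (adjusted p = 0.0635 and 0.0523).

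In unstained library 1 chromosome 8 had 4.55 times and chromosome 11 had 2.88 times the autosomal coverage, and chromosome 4 had no call. In unstained library 2 chromosome 5 was at 4.11 times and chromosome 13 at 3.31 times, whereas chromosome 8 had no call. A total of 6 and 13 of the 19 autosomes lay below 0.25 times the autosomal coverage in these libraries. Of the 266 combinations of a stained library and an autosome, 24 lay below this value, 6 had no call and 19 were above 2 times.

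The plate columns of the stained libraries differed in the same measure. Unevenness was 0.727 ± 0.168 in column 1 (SD, n = 7) and 0.481 ± 0.0488 in column 2 (SD, n = 7), higher in column 1 in 47 of 49 pairs (exact permutation test, p = 0.00175, adjusted p = 0.00549). In column 1 the values were 0.649, 0.646, 0.857, 0.509, 0.642 and 0.775 for libraries 2, 4, 5, 6, 7 and 8, and 1.01 for library 3. In column 2, libraries 9 to 15 had 0.513, 0.492, 0.465, 0.461, 0.446, 0.569 and 0.421. Only column 1 library 6 lay within the range of column 2. Autosomes below 0.25 times the autosomal coverage numbered 19 of 133 in column 1 and 5 of 133 in column 2. In library 3, chromosome 10 reached 3.91 times the autosomal coverage and chromosomes 7, 12 and 17 had no call. In library 8, chromosome 9 was at 2.91 and chromosome 8 at 0.00845 times. The columns differ in position on the plate and by a tag in the file names, which column 2 shares with the unstained column 4 and whose meaning the sources used here do not give. The part of either was not tested.

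No autosome was high or low in every stained library. The mean fold over libraries was highest for chromosome 10, at 1.5 ± 0.943 (SD, n = 14) and above 1 in 10 libraries, and lowest for chromosome 14, at 0.695 ± 0.456 and above 1 in 3. These means were not tested.

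**Figure D3:**
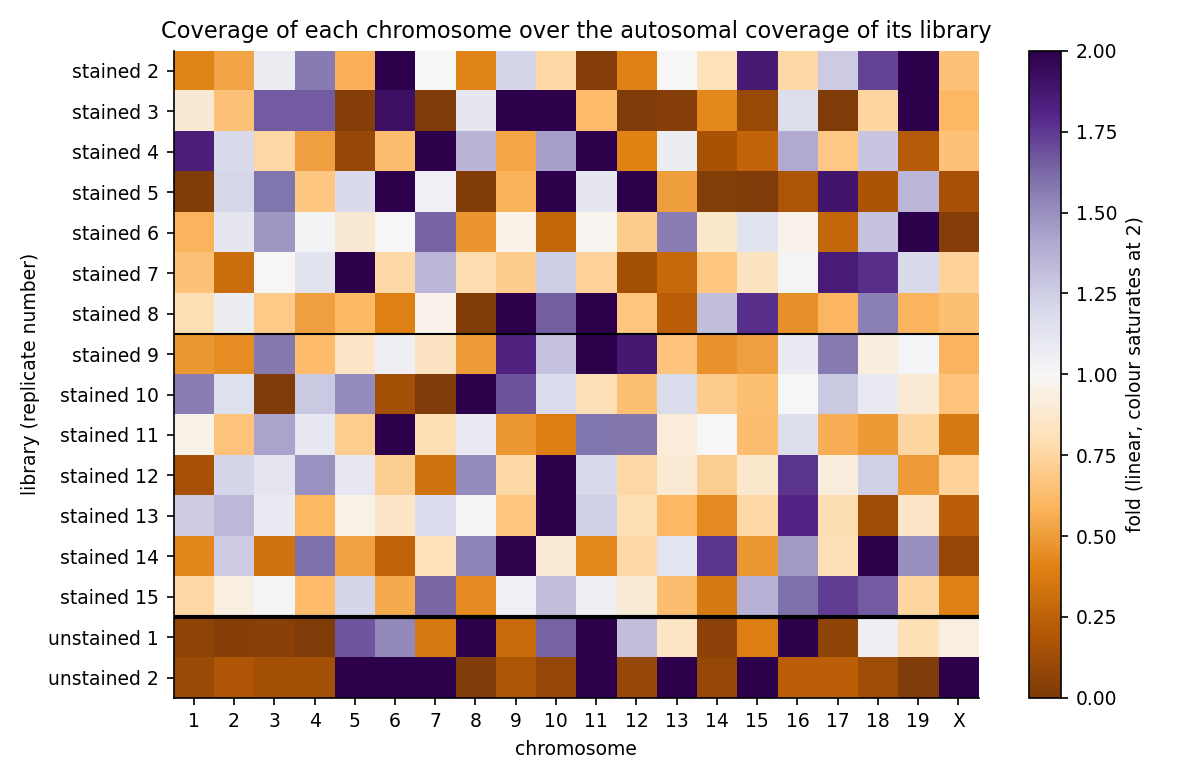
Coverage of each chromosome divided by the autosomal coverage of its library (linear fold, colour saturating at 2), for stained libraries of plate column 1 (top block), column 2 (middle block) and the unstained libraries with at least 100 calls (bottom block). Dark cells of either colour are most frequent in the unstained libraries and in plate column 1, and the X column is below 1 in every stained library.

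The X chromosome had fewer calls for its length than the autosomes in each of the 14 stained libraries. These cells derive from a male line, and male cells carry a single X beside a pair of each autosome. The part of this in the ratios below was not tested. The X to autosome ratio, the called fraction of X windows divided by the called fraction of autosomal windows, was 0.467 ± 0.249 on the linear scale (SD, n = 14), with a median of 0.597. It was lowest in library 6, which had 3 X calls among 1519 (0.0294), and also low in libraries 14 (0.0993), 5 (0.157) and 13 (0.237). The other 10 stained libraries lay between 0.353 and 0.740. On the log2 scale the mean was -1.45 ± 1.32, below 0 in 14 of 14 libraries (exact sign-flip permutation test, p = 0.000122, adjusted p = 0.000793). Unstained libraries 1 and 2 had ratios of 0.932 and 2.39, from 73 and 35 X calls, and the unstained water control had 1.47. All stained libraries were below both unstained ones, in 28 of 28 pairs, but the difference of -2.04 on the log2 scale did not pass after adjustment (exact permutation test, p = 0.05, adjusted p = 0.078). It was -1.36 without unstained library 2, and it passed without stained library 6 (-1.78, adjusted p = 0.0464). The columns did not differ beyond their spread (exact permutation test, adjusted p = 0.934).

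Called windows of stained libraries were richer in GC and in genes than the genome. Over windows with less than 50% undetermined bases the genome had a mean GC content of 41.8%, and 54.7% of the windows overlapped a protein-coding gene. The GC excess of called windows was 0.483 ± 0.372 percentage points (SD, n = 14), above 0 in 13 of 14 libraries (exact sign-flip permutation test, adjusted p = 0.00143). The gene window excess was 3.96 ± 3.07 percentage points, again above 0 in 13 of 14 (exact sign-flip permutation test, adjusted p = 0.00143). The exceptions were library 3 for GC, at -0.142, and library 2 for genes, at -0.567. Both were in plate column 1. With that column alone the means were 0.259 and 2.29 percentage points and neither passed (adjusted p = 0.0882 for both).

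Over 5 classes of windows of rising GC content, coverage relative to the library mean rose from 0.86 ± 0.0912 in the lowest class to 1.19 ± 0.179 in the highest (SD, n = 14). In the highest class the mean was 1.07 in column 1 and 1.31 in column 2. By the number of protein-coding genes in a window, relative coverage was 0.912 ± 0.0678 for none, 1.04 ± 0.0618 for 1, 1.11 ± 0.0933 for 2 and 1.29 ± 0.333 for 3 or more. The GC excess was 0.448 percentage points lower in column 1 than in column 2 (0.259 ± 0.275 against 0.707 ± 0.328, SD, n = 7 each, exact permutation test, adjusted p = 0.0393). The call was lost without libraries 8 and 11 (adjusted p = 0.0691), with medians (0.114), without windows called in any water control (0.104) and with a minimum of 1 call (difference -0.27, adjusted p = 0.405). The gene window excess was 2.29 ± 2.47 in column 1 and 5.63 ± 2.79 in column 2 (SD, n = 7 each, exact permutation test, adjusted p = 0.0625).

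The unstained libraries had GC excesses of 0.888 and 0.958 and gene window excesses of 6.99 and 11.4 percentage points. For GC they lay within the stained range, which reached 1.14, and for genes unstained library 2 lay above the highest stained value of 9.55. Neither difference passed after adjustment (stained minus unstained -0.44 and -5.25 percentage points, exact permutation test, adjusted p = 0.202 and 0.0565). The gene difference was -3.03 without unstained library 2 and -7.46 without unstained library 1, and it passed without stained library 6, 9 or 10 (adjusted p = 0.0464, 0.0354 and 0.0338). On autosomes only, the GC difference was -0.778 and passed (adjusted p = 0.0325). Column 1 alone differed from the unstained libraries by -0.664 for GC and -6.92 for genes, and column 2 alone by -0.216 and -3.58, none of which passed (exact permutation test, adjusted p = 0.0635 for both, then 0.487 and 0.23). The unstained water control followed the genome, with -0.00605 percentage points for GC and 0.973 for genes.

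**Figure D4:**
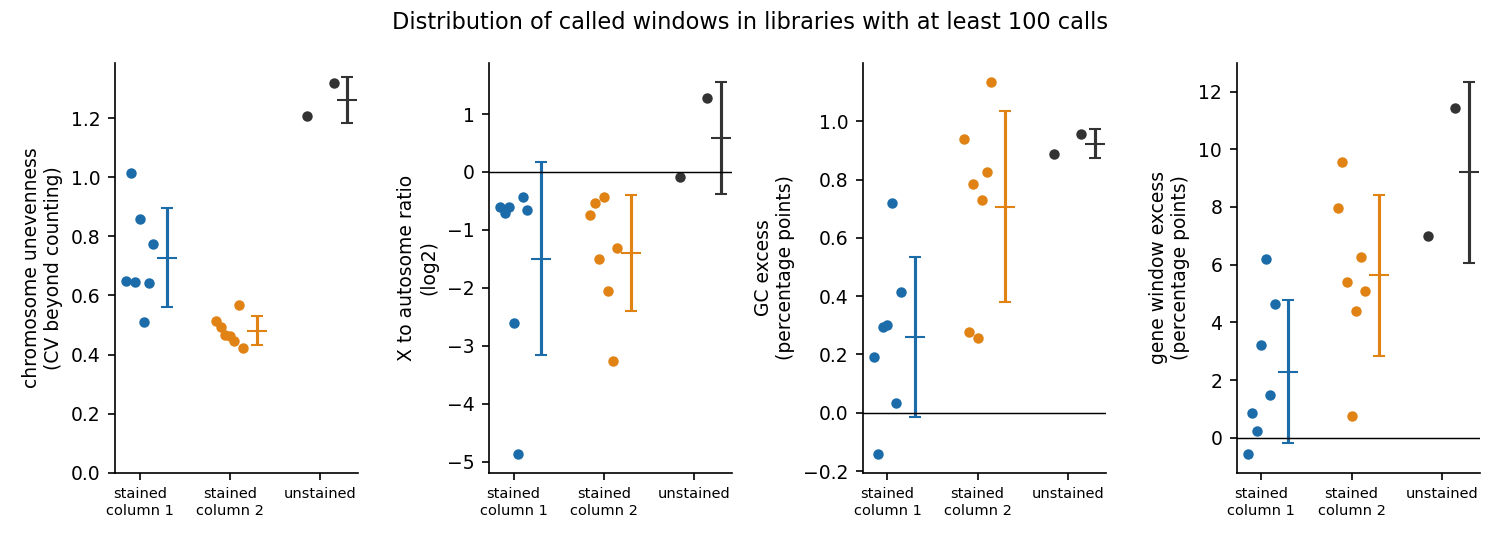
Chromosome unevenness, X to autosome ratio (log2), GC excess and gene window excess (percentage points) of stained libraries of plate columns 1 and 2 (n = 7 each) and unstained libraries (n = 2), 1 point for each library with at least 100 calls, bars with the mean and SD. Unevenness of the unstained libraries lies above all stained ones, and the X ratio is below 0 in all stained libraries.

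Gene lists were followed through the same windows as a description. All windows together were called in 2.60% of the combinations of a stained library and a window. Windows of pluripotency genes, which maintain the undifferentiated state of these cells, were called in 4.8% (18 of 375, with 19 of 20 listed genes found in the annotation), and those of housekeeping genes in 4.87% (19 of 390). Their fold over the library mean was 1.88 ± 2.42 and 1.64 ± 1.94 (SD, n = 14), above 1 in 7 and 8 of 14 libraries, so these counts are too small to set the lists apart. Sox2, which encodes a core pluripotency factor and lies at chr3:34548927-34551383, was called in 3 stained libraries (3, 12 and 15).

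Long neuronal genes are the longest transcription units of the genome and lie in AT-rich regions. Their 738 windows, with a mean GC content of 38%, were called in 2.25% of the combinations (249 of 11070), at 0.862 ± 0.24 times the library mean and above 1 in 4 of 14 libraries. Macrod2, a gene of ADP-ribose metabolism, was called in 8 stained libraries, with 28 calls over its 51 windows. Opcml, a neuronal adhesion molecule, was called in 3, with 22 calls over 30 windows. Dmd, the dystrophin gene on the X, had 3 calls over 58 windows, from libraries 4 and 12. Windows of olfactory receptor genes, odorant receptors that stand in large clusters, were called in 3.03% (309 of 10185, mean GC content 38.9%, 1.31 ± 0.527 times the library mean, above 1 in 9 of 14). Of the Hox genes, the clustered regulators of the body axis, windows were called in 3.33% (8 of 240). Their fold over the library mean was 0.79 ± 1.28, above 1 in 4 of 14 libraries, and thus lay on the other side of the mean than the pooled share. Hoxc4, Hoxc5 and Hoxc6 share 1 window, and they were called in stained libraries 8, 11 and 15, and no gene of the Hoxa cluster was called in any of the 15.

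Most of the windows called at all were seen in 1 stained library only. Over the 15 stained libraries, 21184 windows (32.1%) were called at least once, and 17259 of these (81.5%) exactly once. Scattered calls with the same coverage for each library would reach 32.8% of the windows. Windows called in at least 4 libraries numbered 51 against 26.2 expected, and those called in at least 5 numbered 14 against 1.29. Pairs of stained libraries shared a median of 1.2 times the windows expected from their coverage of each chromosome (91 pairs, range 0.544 to 2.26). The median was 1.21 within a plate column (42 pairs) and 1.20 between columns (49 pairs).

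**Figure D5:**
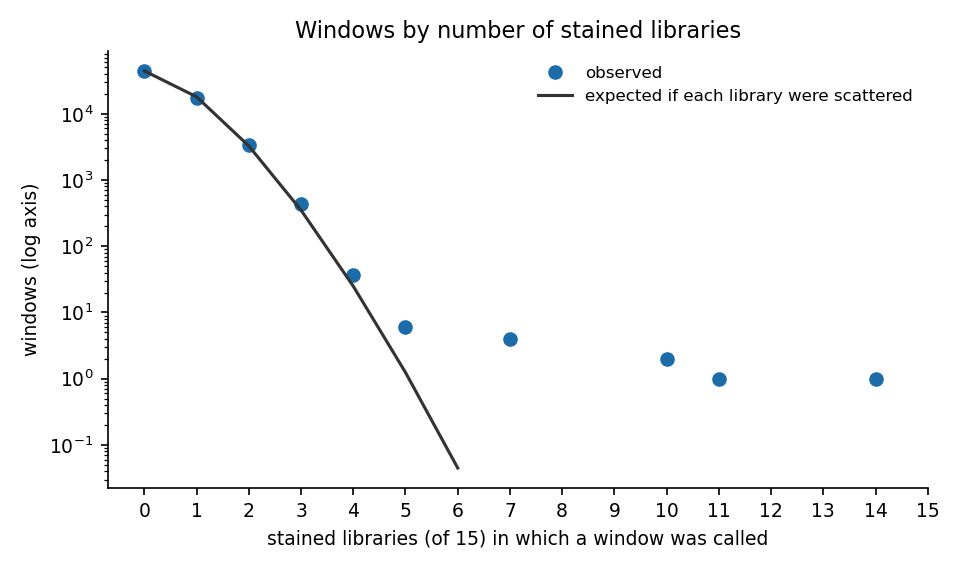
Number of windows (log axis) by the number of stained libraries, of 15, in which they were called, with the number expected if the calls of each library were scattered (line). Points at 5 or more libraries lie above the line, and 1 window was called in 14 libraries.

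The 10 windows described here were those called in most stained libraries. Of these, 8 were called in at least 7 libraries. The last pair came from 6 windows tied at 5 calls and were taken because they had the most calls in other 4NP libraries of the series, so their frequency there is no finding. Among the 10 windows, 3 carried a satellite repeat. The window at chr2:98480001-98520000 was called in 14 of 15 stained libraries, missing only from the nearly empty library 1, and in 125 of the 171 other 4NP libraries, more than any other window. It was also called in 1 of 3 unstained libraries and in the unstained water control, and not in the stained water control. The predicted genes Gm10800 and Gm10801 are annotated there. Inside it lies a tandem repeat of 234 bases, which is the length of the unit of mouse major satellite, the repeat of pericentromeric heterochromatin. A unit of this window is shown with its best ungapped match in the window at chr9:3000001-3040000, since both windows are among the 10 called most often. Capitals mark the 10 positions at which they differ, and both are given in the direction of the chromosome 2 unit, which puts the chromosome 9 match on the minus strand (mm9, chr2:98506706-98506939 and chr9:3014109-3014342).
chromosome 2 unit: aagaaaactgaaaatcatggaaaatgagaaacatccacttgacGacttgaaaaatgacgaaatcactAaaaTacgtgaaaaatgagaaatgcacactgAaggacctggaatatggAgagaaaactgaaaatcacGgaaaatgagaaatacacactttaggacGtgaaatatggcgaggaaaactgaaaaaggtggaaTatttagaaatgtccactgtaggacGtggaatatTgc
chromosome 9 match: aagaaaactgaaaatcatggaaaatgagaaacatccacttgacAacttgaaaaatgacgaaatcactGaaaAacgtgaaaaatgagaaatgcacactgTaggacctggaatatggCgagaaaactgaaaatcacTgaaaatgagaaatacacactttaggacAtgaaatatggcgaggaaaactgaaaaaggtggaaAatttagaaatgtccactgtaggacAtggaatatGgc

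These sequences are 95.7% identical, and the chromosome 2 unit is 96.6% identical to the 234 bases that follow it. Of all windows on chromosomes 1 to 19 and X, 8 held at least 50 words of 16 bases from this unit on either strand, and 3 of these were among the 10 windows called most often. The chromosome 9 window held 10932 such words and was called in 7 stained and 86 other libraries. The window at chr9:35080001-35120000, with Rpusd4 and Gm5614, held 203 and was called in 5 and 74. Reads of a repeat fit many of its copies, so a call in such a window does not place the profile at that position.

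The other frequent windows held at most 3 of these words. The window at chr17:39960001-40000000, which holds the annotated pseudogene AY036118, was called in 11 stained, 2 unstained and 93 other libraries, and it was the only one of the 10 called in the stained water control. The window at chr6:103560001-103600000, within Chl1, a neural adhesion molecule, was called in 10 stained and 92 other libraries, and in no unstained library. The window at chr10:128120001-128160000 was called in 10 stained, 2 unstained and 56 other libraries. It holds 4 protein-coding genes: Rab5b, of early endosomes, Cdk2, a cell cycle kinase, Pmel, of melanosome fibrils, and Dgka, a diacylglycerol kinase. Adjacent windows at chr11:3040001-3080000 and chr11:3080001-3120000, both overlapping Sfi1, a centrosome gene, were called in 7 and 5 stained libraries. A window on the X at chrX:139880001-139920000, with no annotated gene, was called in 7.

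Of the 8 windows called in at least 7 stained libraries, 7 ranked from 1 to 9 among all windows by their calls in the other 4NP libraries. The window at chr13:71720001-71760000, with no annotated gene, was called in 7 of 15 stained libraries (46.7%), 4 of column 1 and 3 of column 2, and in 1 of 3 unstained libraries. Among the 171 other 4NP libraries it was called in 13 (7.6%), which ranked it 4799 among all windows. It was called in neither water control of this experiment, but in 2 of the 11 water controls of the series. This window was picked out of all windows for its count, so the difference is a description and was not tested. Each of the other windows among the 10 called most often was called in the unstained water control, which covered 21% of all windows. Each was also called in 2 to 5 of the 11 water controls of the series.

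Calls of the profile libraries overlapped those of the water controls. Over the 14 stained libraries with at least 100 calls, 44 calls fell in the 65 windows of the stained water control, against 25.3 expected for scattered calls, and 10 of the 14 libraries were above their expectation. At most 0.426% of the calls of any of these libraries lay in these windows. With the unstained water control, which covered 21% of the genome, stained libraries shared 19% to 28.8% of their calls, in total 5738 against 5398 expected.

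Stained libraries were also set beside failed libraries of 3 other stains of the series, each from another experiment. Of propidium iodide and eosin, the arms without freezing and in water were used, and the frozen and ethanol arms were not. The SYBR Gold caps had been frozen overnight, so they also differed in freezing from the propidium iodide arm used. Stain and experiment cannot be told apart. The group named SYBR Gold follows the titles, and by the protocols its 15 libraries had no staining step. Coverage was 2.60% ± 2.03 with SYBR Gold (SD, n = 15), 0.559% ± 0.19 with crystal violet (n = 16), 8.36% ± 6.32 with propidium iodide (n = 21) and 5.44% ± 2.20 with eosin in water (n = 8). The neighbour excess followed the same order, with 15 ± 8.9, 3.61 ± 1.21, 42.9 ± 15 and 27.1 ± 11.2 percentage points. SYBR Gold differed from each of the others in both measures (permutation test with 100000 resamples, or exact for eosin, adjusted p between 0.00013 and 0.0242). Among the SYBR Gold libraries used, the one with the lowest coverage had the lowest neighbour excess, and the one with the highest coverage had the highest. The stains were not compared at like coverage. The percent of called windows in long runs was 0.915% ± 2.35 with SYBR Gold, 0 in all crystal violet libraries, 19.6% ± 16.7 with propidium iodide and 4.08% ± 4.03 with eosin, and each difference from SYBR Gold passed (permutation test, exact for eosin, adjusted p = 0.027, 0.00111 and 0.038). Without stained libraries 8 and 11 the long run difference from crystal violet was 0.119 percentage points (permutation test, adjusted p = 0.1). Without windows called in any water control it was 0.436 (permutation test, adjusted p = 0.075), and with medians 0, so the call was lost each time. On autosomes only, the long run difference from eosin was -3.02 and did not pass (exact permutation test, adjusted p = 0.0518). On the log10 scale the differences in coverage from propidium iodide and eosin did not pass (adjusted p = 0.151 and 0.0625).

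Unevenness of SYBR Gold libraries, at 0.604 ± 0.174 (SD, n = 14), was above that of crystal violet at 0.266 ± 0.168 (n = 16, permutation test, adjusted p = 0.00013). Against propidium iodide at 0.675 ± 0.255 (n = 19) and eosin at 0.593 ± 0.111 (n = 8, exact permutation test) no difference passed, with adjusted p = 0.461 and 0.934. The GC excess with SYBR Gold, 0.483 ± 0.372, was above crystal violet at -0.0396 ± 0.476 (permutation test, adjusted p = 0.00783) and eosin at 0.0605 ± 0.245 (exact permutation test, adjusted p = 0.0231, but 0.138 with medians), and near propidium iodide at 0.512 ± 0.351 (permutation test, adjusted p = 0.912). The gene window excess was lower than with crystal violet, at 3.96 ± 3.07 against 9.99 ± 4.79 percentage points (permutation test, adjusted p = 0.00143). Against propidium iodide at 4.11 ± 2.89 and eosin at 1.40 ± 2.37 it did not pass (permutation test, exact for eosin, adjusted p = 0.934 and 0.0847). For the log2 X to autosome ratio, SYBR Gold lay below crystal violet (-1.45 ± 1.32 against -0.43 ± 0.50, permutation test, adjusted p = 0.00549) and below eosin (-0.26 ± 0.61, exact permutation test, adjusted p = 0.038), but neither call held with medians in place of means (adjusted p = 0.103 and 0.138). Propidium iodide libraries had -1.91 ± 2.06, and the difference from them did not pass (permutation test, adjusted p = 0.555).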

How the data were processed

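The authors sequenced amplified DNA of 199 libraries and aligned the reads to mm9 with Bowtie2 (version 2.1 per the labels). They removed PCR duplicates with Samtools and called 40 kb windows with GAMtools at a fixed read threshold. The deposited values were calls of 0 or 1 for each window, not counts or scores, and hold no depth. The ends of all chromosomes equalled those of NCBIM37, from which GC content and, with GENCODE M1, gene overlap were taken. Columns were matched to samples by well name. Windows on chromosomes 1 to 19 and X were used.

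Group means were compared by two-sided permutation tests, exact where a group held fewer than 10 libraries and with 100000 resamples otherwise, and means against 0 by exact sign flips. The Benjamini-Hochberg method was applied over all 39 tests at once, with a threshold of 0.05. Named windows were the 10 called in most stained libraries and the longest run of each library; genes came from 5 lists by a fixed rule. The members, lists and tests were chosen with earlier results of these data known. Alternatives changed the minimum of calls, the windows, the summary, the definitions and the libraries used. The measures were tested on simulated data. Python 3 with numpy, pandas and scipy was used. The mitochondrial and Y windows are given in the closing section only.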

Additional observations from a re-analysis of the deposited data

Results flagged for a closer look

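Within a plate column, 14 sets of values were searched for a library far from the others of its column, and chance alone marks about 1 in 20 such sets. In column 1, stained library 8 stood apart by its coverage of 7.02% (next 2.42%), its neighbour excess of 40.6 percentage points (next 20.8) and its long run share of 8.68% (next 0.314%). In column 2, stained library 11 stood apart by a long run share of 2.70% (next 0.747%). Over all libraries the neighbour excess was 7.47 percentage points higher in column 1 than in column 2, which did not pass (exact permutation test, adjusted p = 0.143). Without both libraries, a removal chosen after their values of this measure were seen, it was 5.69 (adjusted p = 0.0482).

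Rows outside the main measurement also held calls. The mitochondrial window was called in 10 of 15 stained libraries, in 1 of 3 unstained ones and in the unstained water control, but not in the stained water control. It was called in 121 of the 171 other 4NP libraries and in 5 of the 11 water controls of the series. The Y windows held 42 calls in the stained libraries, in 8 of 15 and at most 11 in a library, 1 call in an unstained library, 4 in the unstained water control and 0 in the stained one. With 398 Y windows in each library, the stained calls were 0.704% of the combinations. The cause of these calls was not tested.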

How the results depend on the processing

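No paired analysis was possible because the labels number no replicates, and the numbers used here only name libraries in accession order. A minimum of 30 calls left the same libraries as 100 and changed nothing. With windows of mostly determined bases, with neighbours within 2 windows and with runs of 3 or more windows, every direction and call was kept. With a minimum of 1 call, stained minus unstained passed for the X ratio (-2.44), GC (-1.61) and genes (-16.7), which rests on libraries with 3 and 1 calls. The neighbour excess was then -3.77, the long run share -0.927 and unevenness -0.417 (adjusted p = 0.0499). There, column 1 minus 2 was 0.23 for the X ratio and -0.27 for GC, and against eosin the X ratio was -1.02, none of which passed. Leaving out windows called in any water control, which removes those of both high controls, gave X ratios of 0.0081 between columns, -0.74 against crystal violet and -1.16 against eosin, a GC difference of -0.41 between columns, a long run share of 0.436 against crystal violet and a gene excess of 0.166 against propidium iodide, with no call. On autosomes only, GC of stained minus unstained passed (-0.778), the long run share against eosin did not (-3.02), and genes against propidium iodide were 0.00942. On the log10 scale coverage against propidium iodide (-0.452) and eosin (-0.537) did not pass. With medians, no call was made for the X ratio between columns (0.66), against crystal violet (-0.31) and against eosin (-0.46), GC between columns (-0.488) and against eosin (0.264), the long run share against crystal violet (0), genes against propidium iodide (0.285) and unevenness against eosin (-0.056). With any annotated gene, the last-named gene excess was 0.466.

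Leaving out 1 library at a time, stained minus unstained ranged from 1.47 to 2.40 for coverage, -26.8 to 3.50 for the neighbour excess, -4.43 to 0.915 for the long run share, -0.713 to -0.603 for unevenness, -2.73 to -1.36 for the X ratio, -0.49 to -0.392 for GC and -7.46 to -3.03 for genes. The X ratio passed without stained library 6 (adjusted p = 0.0464), and genes passed without stained library 6, 9 or 10 (adjusted p = 0.0464, 0.0354 and 0.0338). The means against 0 kept their call, at 13.1 to 15.9 for the neighbour excess, -1.53 to -1.19 for the X ratio, 0.433 to 0.531 for GC and 3.53 to 4.31 for genes.

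After the data were seen, single plate columns and the removal of stained libraries 8 and 11 were added. With column 1 alone, unevenness against unstained (-0.535) and the means against 0 (18.8 for neighbours, -1.50 for X, 0.259 for GC, 2.29 for genes) did not pass, with adjusted p between 0.05 and 0.0882. For neighbours and X the exact sign-flip permutation p was the smallest that 7 libraries allow, 0.0156. With column 2 alone, unevenness against unstained was -0.781 (adjusted p = 0.0523). Without libraries 8 and 11, column 1 minus 2 was 5.69 for neighbours, -0.134 for long runs and -0.461 for GC, and the long run share against crystal violet was 0.119. With 2 usable unstained libraries, an exact permutation p cannot fall below 0.00833. The calls hold no read depth, so a library with little DNA and one with few reads cannot be told apart.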
